A study of Homo sapiens with 3 samples.

Results

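The 10 genes described here mark intestinal identity: 6 transcription factors of the intestinal lineage (CDX1, CDX2, HNF4A, KLF5, GATA6 and SOX9) and 4 genes of differentiated epithelium (VIL1, MUC13, AGR2 and DPP4). They were chosen by symbol, out of 22465 genes that the platform's annotation names by a single symbol, and each gene was read from the probe set with the highest mean over the arrays. Of the 10, 9 had a probe set carrying their symbol alone, 1 each. HNF4A had none of that kind and is not analysed here, and probe sets with several symbols were not used for the 10 genes. Of the 9, 7 reached a mean log2 signal of 5 over the arrays, the minimum set for comparing a gene, and CDX1 and VIL1 lay below it; 9630 genes in all were compared.

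The arrays were hybridised with RNA from DLD1, an established human colorectal adenocarcinoma cell line with a mutant APC gene. The cells received a control siRNA, called si(-), or siH19-1 or siH19-2, separate siRNAs against the imprinted long noncoding RNA H19. Each siRNA was given at 50 nM with a lipid reagent, and 500 ng of total RNA went into each array. The labels' protocol puts the transfection at 48 hours, the design text at 24 hours. There was 1 array per condition, so every difference below is between single arrays and has no replicate error, and both siRNA arrays are set against the same control array. A gene is said to rise or fall where its deposited signal differed at least 1.5-fold, which is 0.585 on the log2 scale; no p-value was computed from a single difference. All values come from 1 cell line in culture, and in bulk RNA a smaller number of cells expressing a gene and less RNA per cell cannot be told apart.

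In the intestine, CDX2 and CDX1 are homeobox factors that set intestinal identity, and HNF4A is a nuclear receptor of the enterocyte programme. GATA6 is a zinc finger factor and KLF5 a Krüppel-like factor, both active in the proliferating crypt, and SOX9 is an HMG-box factor of crypt base cells that responds to WNT signals. Villin, the product of VIL1, bundles actin in brush border microvilli. MUC13 is a transmembrane mucin of the apical surface, AGR2 is a disulfide isomerase of the endoplasmic reticulum that goblet cells need to make mucin, and DPP4 is a membrane peptidase that inactivates incretin hormones.

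The 250 bases before the transcription start are shown for AGR2 and MUC13, which had the largest differences among the 10 genes, and for CDX2. The CDX2 window holds matches to the core that its own protein family binds. Both KLF5 windows, not shown, likewise hold matches to the core of the Krüppel-like factors. RefSeq sequences (GRCh38.p14) were found for 7 of the 10 genes. Capitals mark short cores that factor families among the 10 genes are known to bind, searched on both strands: TTTAT for the CDX factors, GATAA for zinc finger factors like GATA6, ACAAT for the SOX factors and CACCC for the Krüppel-like factors. All 3 genes lie on the minus strand, and each sequence is written 5′ to 3′ in the direction of transcription: AGR2 at chr7:16805000-16805249, CDX2 at chr13:27969316-27969565 and MUC13 at chr3:124934752-124935001.
AGR2: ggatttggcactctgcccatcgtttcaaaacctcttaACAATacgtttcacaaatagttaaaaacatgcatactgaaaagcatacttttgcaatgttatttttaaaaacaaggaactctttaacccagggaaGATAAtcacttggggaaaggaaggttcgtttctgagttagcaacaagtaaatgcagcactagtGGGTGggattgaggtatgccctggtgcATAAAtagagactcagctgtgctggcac
CDX2: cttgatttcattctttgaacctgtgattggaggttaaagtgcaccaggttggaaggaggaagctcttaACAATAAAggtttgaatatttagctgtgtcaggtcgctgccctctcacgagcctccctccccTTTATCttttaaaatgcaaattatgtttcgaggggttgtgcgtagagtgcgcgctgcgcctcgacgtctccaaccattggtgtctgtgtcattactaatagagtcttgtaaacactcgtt
MUC13: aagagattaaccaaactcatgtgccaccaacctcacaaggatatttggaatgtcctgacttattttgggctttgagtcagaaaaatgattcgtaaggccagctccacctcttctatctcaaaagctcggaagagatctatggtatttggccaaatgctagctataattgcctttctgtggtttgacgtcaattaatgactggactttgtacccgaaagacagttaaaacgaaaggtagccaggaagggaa

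The AGR2 window held 1 match to each core. Its CDX match began 28 bases before the start, the KLF match at 55, the GATA match at 118 and the SOX match at 213. CDX2 held 2 CDX matches, of which the one at 179 overlapped the SOX match at 182 and the one at 120 overlapped the GATA match at 119. MUC13 held 0 matches to the 4 cores. Such short cores are common: of 35116 promoter windows of this length, 32.7% held the CDX core, 20.4% the GATA core, 24.6% the SOX core and 54.7% the KLF core. A match is a string of letters and was not tested as a binding site.

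The targeted transcript itself read slightly lower with siH19-1 and lower still with siH19-2. Its probe set, which the annotation gives to H19 and MIR675 together, had log2 signals of 7.88 (control), 7.74 (siH19-1) and 7.37 (siH19-2), differences of -0.14 and -0.51, which are both under 1.5-fold. Colon epithelial markers were partly present: of 12 fixed for this check, 6 reached the signal minimum, namely EPCAM, the cadherin CDH17, the keratins KRT8, KRT18 and KRT19, and CDX2. GPA33, KRT20, LGALS4, CEACAM5, CDX1 and VIL1 did not, so the other 6 markers of the list were dim on these arrays. Among mesenchymal and fibroblast markers 0 of 10 measured genes reached the minimum, among leukocyte and endothelial markers 1 of 8 (CD68), and among markers of stomach, liver and squamous epithelium 0 of 8. The arrays had similar medians over their probe sets, at log2 3.47 (control), 3.53 (siH19-1) and 3.57 (siH19-2). Over the compared genes the median difference from control was -0.06 with siH19-1 and -0.07 with siH19-2.

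AGR2 was the 1 gene of the set that rose, and it did so with both siRNAs, as 0.685% of all compared genes did. Its log2 signal was 7.60 in control, 8.36 in siH19-1 and 8.19 in siH19-2, so both siRNA arrays lay above the control. They lay 0.17 apart, and 48.3% of all compared genes had a wider gap between the siRNAs. Both differences use the same control array. The differences from control were 0.76 (1.69-fold) and 0.59 (1.51-fold), the second just past the threshold. After each array was centred on its median the siH19-2 difference was 0.49, under 1.5-fold. Of the 9630 compared genes, 65 were higher by more than AGR2 with siH19-1 and 269 with siH19-2. Among 1505 genes within 0.5 log2 units of its mean signal, the SD of the differences was 0.30 with siH19-1 and 0.423 with siH19-2, a spread between genes and not an error of AGR2.

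MUC13 came nearest to the threshold without reaching it. It read 6.27 in control, 6.82 in siH19-1 and 6.46 in siH19-2. The control was the lowest of the 3 arrays and siH19-1 stood above the others. The difference of 0.55 with siH19-1 (1.46-fold) was exceeded in the upward direction by 175 compared genes, and that of 0.19 with siH19-2 by 1708. DPP4 had the opposite order of the siRNAs: its signal was 5.03 in control, 5.19 in siH19-1 and 5.45 in siH19-2, with differences of 0.16 and 0.42 (1.34-fold with siH19-2). Its control value lay at the signal minimum, and without detection calls a signal this low cannot be called present or absent. VIL1 read 3.82, 3.89 and 3.89, with a difference of 0.07 with each siRNA. This is close to the median difference of all genes below the minimum, 0.03 with siH19-1 and 0.07 with siH19-2.

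**Figure D1:**
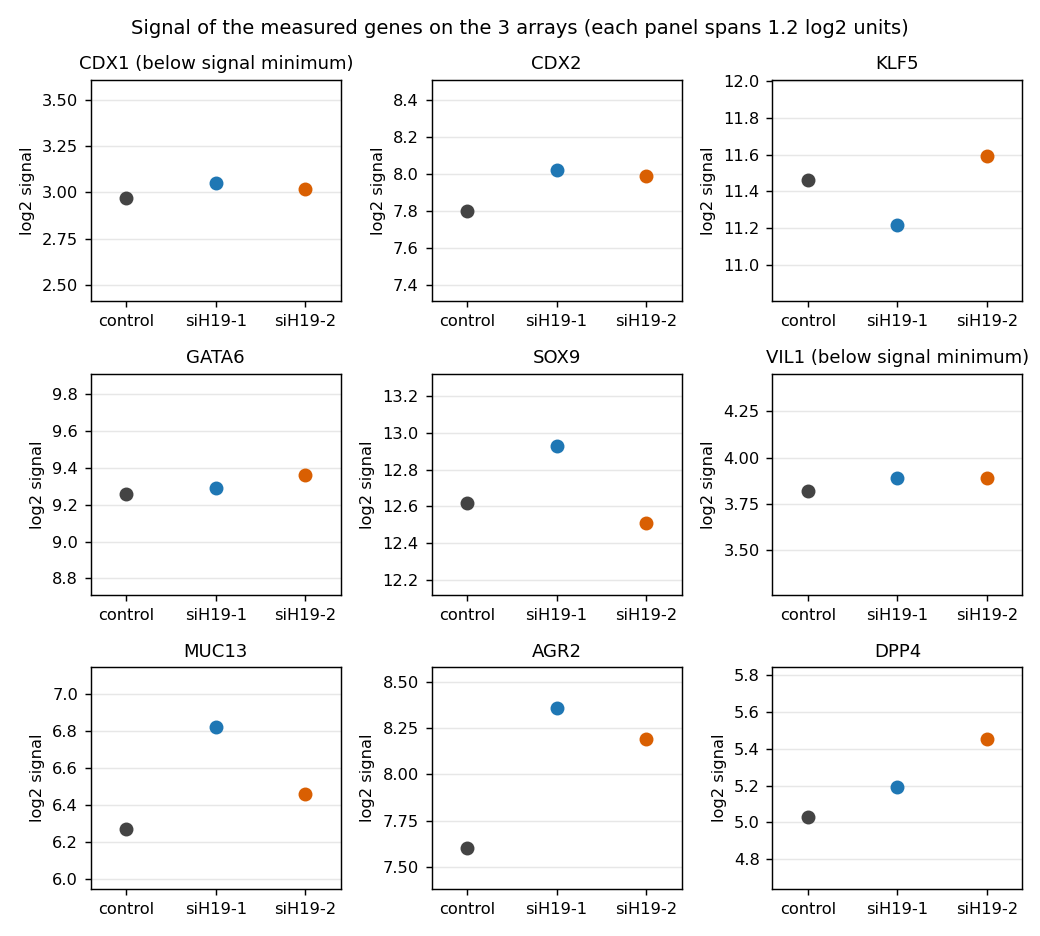
Deposited log2 signal (vertical axis) of the 9 measured genes on the control, siH19-1 and siH19-2 arrays; each point is 1 array and every panel spans the same width, centred on that gene. AGR2 stands out by the gap between the control (7.60) and both siRNA arrays (8.36 and 8.19), while KLF5 and SOX9 have the control between the siRNA arrays.

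None of the 4 lineage factors that could be compared reached 1.5-fold with either siRNA. CDX2 read 7.80 in control, 8.02 in siH19-1 and 7.99 in siH19-2. Both siRNA arrays lay above control by nearly the same amount, 0.22 and 0.19, or 116% and 114% of the control signal. CDX1, its paralogue, lay below the minimum at 2.97, 3.05 and 3.02, and its differences of 0.08 and 0.05 were as small as those of VIL1. GATA6 read 9.26, 9.29 and 9.36 in control, siH19-1 and siH19-2, a range of 0.10 over the 3 arrays and the narrowest of the 7 compared genes. Its differences of 0.03 and 0.10 became -0.03 and 0.00 after median centring, so GATA6 has no settled direction here.

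KLF5 and SOX9 lay on opposite sides of control with the siRNAs, in each case by less than 1.5-fold. KLF5 read 11.46 in control, 11.22 in siH19-1 and 11.59 in siH19-2. With siH19-1 it lay below control by 0.24 and with siH19-2 above it by 0.13. SOX9 read 12.62 in control, 12.93 in siH19-1 and 12.51 in siH19-2, differences of 0.31 and -0.11. For both genes the control array lay between the siRNA arrays. The signs of these 4 differences were the same as deposited and after median centring, quantile normalization and cyclic loess.

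**Figure D2:**
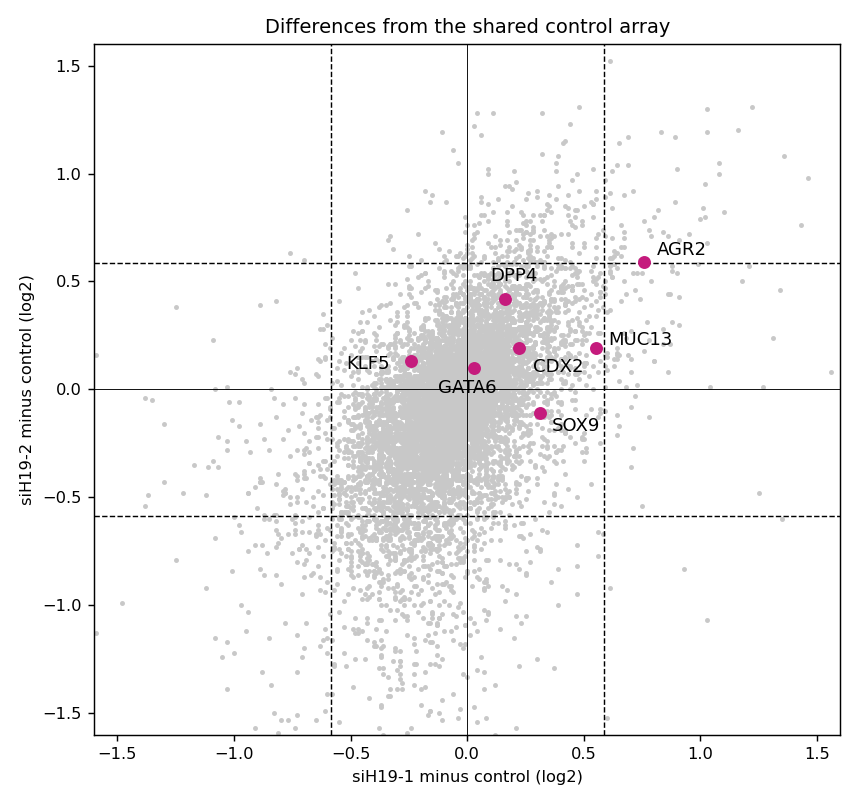
Difference from control on the log2 scale with siH19-1 (horizontal axis) and siH19-2 (vertical axis) for the 9630 compared genes (grey) and the 7 compared intestinal genes (coloured); dashed lines mark 1.5-fold, and 79 genes lie outside the axes. Both axes share the control array, so the tilt of the grey cloud is partly built in; AGR2 (0.76 and 0.59) is the 1 coloured point past both lines.

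Counted together, 1 of the 7 compared genes rose and 0 fell with siH19-1, where 1.58% of all compared genes rose and 2.63% fell. With siH19-2 the count was again 1 and 0, where 2.94% rose and 8.95% fell. A single gene is too few to set the group apart from these shares. The median difference over the 7 genes was 0.22 with siH19-1 and 0.19 with siH19-2, beside -0.06 and -0.07 over all compared genes. With siH19-1, 6 of the 7 lay above control by any amount (36.1% of all compared genes did), all but KLF5. With siH19-2 it was also 6 (39.9% of all), all but SOX9. These counts are on the deposited scale and share the control array. Both include GATA6, which was at -0.03 and 0.00 after median centring and then no longer lay above control. The 3 compared differentiation markers had medians of 0.55 with siH19-1, the value of MUC13, and 0.42 with siH19-2, the value of DPP4, both under 1.5-fold. The 4 compared lineage factors had medians of 0.12 and 0.12. VIL1 and CDX1, below the minimum, did not enter these medians, and so few genes do not set markers and factors apart.

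Set directly against each other, without the control array, the siRNA arrays differed by less than 1.5-fold for all 7 compared genes, where 8.21% of all compared genes differed by that much. SOX9 had the widest gap, 0.42 higher with siH19-1 than with siH19-2. It was followed by KLF5 at -0.37, MUC13 at 0.36 and DPP4 at -0.26. AGR2, at 0.17, differed less between the siRNAs than either of them did from control. A wider gap between the siRNAs was seen for 48.3% of all compared genes. CDX2 at 0.03 and GATA6 at -0.07 were close to equal.

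Among other transcription factors of the intestine, 16 of 20 listed had a probe set carrying their symbol alone and 8 were compared. With siH19-1, 0 rose and 0 fell, where 1.58% of all compared genes rose and 2.63% fell, and the median difference was 0.21. With siH19-2, 0 rose and 1 fell, where 2.94% rose and 8.95% fell. The median with siH19-2 was 0.04, or -0.06 after median centring. In this list and those below, so few genes cannot be set apart from these shares. The gene that fell was EHF, an epithelial ETS factor. It read 8.89, 9.47 and 8.22 in control, siH19-1 and siH19-2, so siH19-1 lay above control by 0.58, at the edge of the threshold, and siH19-2 below it by 0.67. After quantile normalization (0.63) and cyclic loess (0.64) EHF passed 1.5-fold with siH19-1 as well. ELF3, another epithelial ETS factor, was at 0.41 and 0.45, and the Notch target HES1 at 0.36 and 0.32, while the vitamin D receptor gene VDR was at -0.12 and -0.47 and the forkhead factor FOXA1 at -0.17 and 0.05. None of these 4 reached 1.5-fold. ATOH1, SPDEF and GFI1, factors of the secretory lineage, lay below the minimum on average, with mean signals under 5.

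AGR2 acts in the secretory pathway of mucin-producing cells, and goblet cell products were almost all dim here. Of 18 measured, 2 were compared, MUC5AC (0.15 and -0.24) and ERN2, the epithelial endoplasmic reticulum stress sensor (0.27 and 0.16), and 0 rose or fell; the medians of these 2 genes were 0.21 and -0.04. Over all 18 genes the median log2 signal was 3.21 in control, 3.29 in siH19-1 and 3.30 in siH19-2. The secreted mucin MUC2 (3.47, 3.56 and 3.62) and the AGR2 paralogue AGR3 (2.69, 2.70 and 2.71) stayed below the minimum on all 3 arrays. Enteroendocrine, Paneth and tuft cell markers had 0 of 20 measured genes past the minimum. The rise of AGR2 thus stands beside goblet cell markers that were dim on all 3 arrays, and their part in it was not tested.

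The protein disulfide isomerases and their partners, the wider family of AGR2, were counted beside it. Of 12 compared, 0 rose with either siRNA. Of all compared genes 1.58% and 2.94% rose, so a count of 0 in so few genes does not set the family apart. With siH19-1, 1 fell, where 2.63% of all compared genes fell, and with siH19-2, 2 fell, where 8.95% did. The medians were -0.04 and -0.06. PDIA3, which folds glycoproteins with calnexin, read 14.87, 13.79 and 14.87, so that it fell by 1.08 with siH19-1 and equalled control with siH19-2. TXNDC5 (-0.35 and -0.63) and TXNDC12, the closest relative of AGR2 and AGR3 in the family (-0.03 and -0.59), fell with siH19-2 as deposited. Neither fell after quantile normalization (-0.53 and -0.48 with siH19-2) or cyclic loess (-0.58 and -0.54). HSPA5, the main chaperone of the endoplasmic reticulum, was at 0.01 and -0.55, under 1.5-fold.

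A list of colon epithelial identity genes, which holds membrane mucins like MUC13 and other surface proteins together with keratins and galectins, had 21 measured genes, of which 8 were compared. With siH19-1, 0 rose and 0 fell (median 0.22), where 1.58% of all compared genes rose and 2.63% fell. With siH19-2, 2 rose and 1 fell (median 0.14), where 2.94% rose and 8.95% fell. MUC20, like MUC13 a membrane mucin, read 5.43, 5.98 and 6.13 in control, siH19-1 and siH19-2. It rose with siH19-2 (0.70) and, at 0.55 with siH19-1, equalled MUC13 there without reaching 1.5-fold. CDH17, the intestinal cadherin and a known CDX2 target, rose by 0.62 with siH19-2 and was at 0.17 with siH19-1, on levels of 9.25, 9.42 and 9.87; after median centring it was at 0.52 with siH19-2, under 1.5-fold. EPCAM, an adhesion protein of the same epithelium, was at -0.04 with siH19-1 and fell by 1.72 with siH19-2. The other membrane mucins measured, MUC1, MUC3A, MUC4, MUC12 and MUC17, lay between 2.97 and 3.39 on every array and below the minimum.

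Brush border genes, the setting of VIL1 and DPP4, were also mostly dim. Of 15 structural genes measured, 6 were compared, with medians of 0.05 and 0.05 (-0.01 and -0.05 after median centring). With siH19-1, 0 changed. With siH19-2, where 8.95% of all compared genes fell, EPS8, an actin-capping protein of microvilli, fell (8.99, 8.86 and 8.37, differences of -0.13 and -0.62). After quantile normalization (-0.54) and cyclic loess (-0.57) EPS8 was under 1.5-fold. PLS1, which bundles actin beside villin, was at 0.44 and 0.28. Of 29 enterocyte enzymes and transporters measured, 2 were compared, SLC26A2 (-0.10 and 0.01) and DGAT1 (-0.09 and -0.20), and 0 changed; the medians were -0.10 and -0.10. Sucrase-isomaltase (SI), intestinal alkaline phosphatase (ALPI) and aminopeptidase N (ANPEP), which share the enterocyte membrane with DPP4, lay between 2.91 and 3.21 on all arrays.

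Further lists held relatives of VIL1 and the lineage factors, and enzymes grouped with DPP4. In the villin and gelsolin family 2 of 7 measured genes were compared, SVIL (0.26 and 0.16) and FLII (-0.04 and -0.09), and 0 changed (medians 0.11 and 0.04). In the DPP4 enzyme list, not all of whose genes are paralogues of DPP4, 5 of 9 measured genes were compared, with medians of -0.06 and -0.30. With siH19-1, 0 changed, and with siH19-2, 0 rose and 1 fell, where 8.95% of all compared genes fell. DPP9, a cytosolic dipeptidyl peptidase, fell with siH19-2 from 8.52 to 7.14 (-1.38), against -0.18 with siH19-1, while DPP4 was above control with each. The KLF, SOX, GATA and CDX relatives had 11 of 24 compared, of which 0 changed (medians 0.06 and -0.11). With siH19-2, 2.94% of all compared genes rose and 8.95% fell. KLF7 (0.21 and 0.46) and KLF9 (-0.32 and -0.39) were the farthest of these relatives from control with siH19-2.

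Crypt stem cell genes had medians below control. Of 16 measured, 11 were compared; 0 rose with either siRNA, 0 fell with siH19-1 and 1 fell with siH19-2, where 8.95% of all compared genes fell. After median centring, which lowers every siH19-2 difference alike, 4 fell with siH19-2: CDCA7 (-0.80), ASCL2 (-0.63), ZNRF3 (-0.62) and LGR5 (-0.60). The 8.95% is on the deposited scale, and the share of all compared genes that fell after median centring was not computed. Their medians were -0.10 and -0.13, close to the -0.06 and -0.07 of all compared genes. CDCA7, a MYC-responsive gene of proliferating crypt cells, read 7.52, 7.31 and 6.82 and fell by 0.70 with siH19-2. LGR5, the receptor that marks crypt base stem cells, was at -0.28 and -0.50. ZNRF3, a ligase that removes WNT receptors, was at -0.30 and -0.52, and ASCL2 at -0.10 and -0.53. Of the 11, 3 lay above control with siH19-1 and 2 with siH19-2. Other members lay above control with 1 siRNA or both: TNFRSF19, a receptor of the tumour necrosis factor family, at -0.10 and 0.52, PROM1 at 0.22 and -0.12, and SOX4 at 0.13 and 0.05. AXIN2, a WNT feedback gene (12.97, 13.03 and 12.89), varied little, at 0.06 and -0.08.

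**Figure D3:**
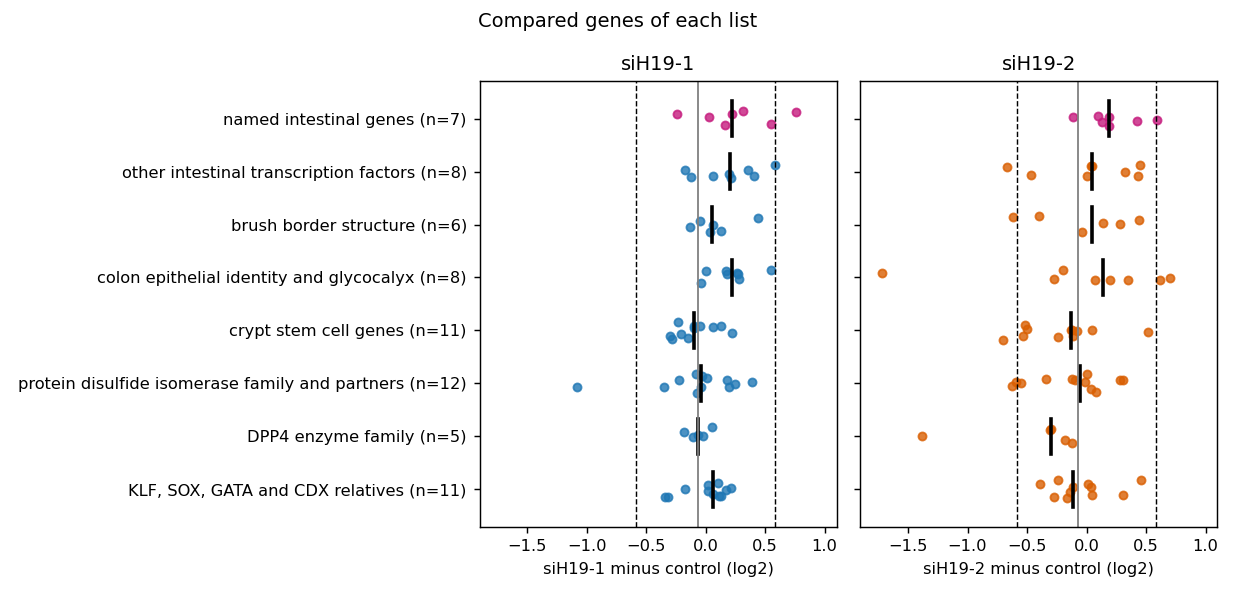
Difference from control on the log2 scale (horizontal axis) for each compared gene, in lists where 5 or more could be compared, with siH19-1 at the left and siH19-2 at the right; black bars are list medians, the grey line is the median of all 9630 compared genes and dashed lines mark 1.5-fold. The 7 intestinal genes have medians of 0.22 and 0.19, and the outlying points to the left are PDIA3 (-1.08) with siH19-1, and EPCAM (-1.72) and DPP9 (-1.38) with siH19-2.

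Genes with the pattern most like AGR2, by the Euclidean distance over the differences with both siRNAs, were RAB18, a GTPase of lipid droplets and the endoplasmic reticulum (0.74 and 0.60), and PAWR, a pro-apoptotic regulator (0.75 and 0.54); 5 compared genes lay within 0.1 of AGR2. For MUC13 they were TENT4B, a noncanonical poly(A) polymerase (0.56 and 0.19), and YAP1, the Hippo pathway coactivator (0.57 and 0.19), with 30 genes within 0.1. The other 5 compared genes lay in crowded ranges, with 59 (SOX9) to 907 (GATA6) genes within 0.1, so a nearest gene says little there. With 3 arrays, likeness rests on 2 differences that share the control.

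**Figure D4:**
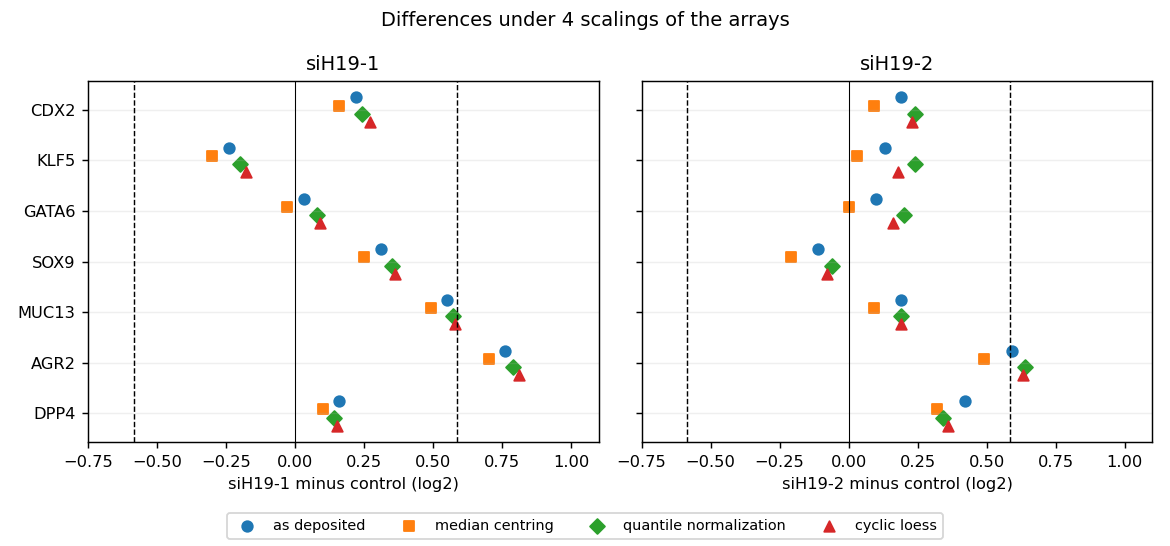
Difference from control on the log2 scale (horizontal axis) of the 7 compared intestinal genes with siH19-1 (left) and siH19-2 (right), as deposited and after 3 other scalings; dashed lines mark 1.5-fold. Median centring moves every gene to the left, taking AGR2 with siH19-2 from 0.59 to 0.49, whereas AGR2 with siH19-1 stays between 0.70 and 0.81.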

How the data were processed

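RNA from 3 DLD1 cultures was measured on Affymetrix whole-transcript arrays, 1 per condition. Per the submitters' processing notes, the authors made the deposited log2 values with Affymetrix Expression Console and RMA, a background correction, between-array normalization and probe summary; no version is stated in these sources. The values ran from 1.78 to 19.93, and 315 to 337 probe sets per array lay above 16, more than a plain log2 of a scanner reading would give, so a further transformation is possible and folds are on the deposited scale. Precision is limited by the number of arrays, and detection calls were not used.

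The annotation gave 1 symbol to 23781 of 67528 probe sets, several to 1543 and none to 42204. A gene was compared where its mean log2 signal was at least 5, which left out 12835 genes. Differences were called at 1.5-fold on size alone, without a test. As a check, limma set both siRNA arrays, taken as replicates, against control with 1 residual degree of freedom, assuming that the lone control varies like them. The members and the 14 gene lists were chosen with earlier results of these data known. Named genes are the members, listed genes that changed at least 1.5-fold, at most 8 per list, and the 2 genes nearest each member; other genes named were chosen after their values were seen, apart from the defining markers. Alternatives were median centring, quantile normalization, cyclic loess, no signal minimum or a minimum of 7, a 2-fold threshold, and the mean over a gene's probe sets. Tools were Python 3.11.15, numpy 2.4.6, pandas 2.3.3, matplotlib 3.10.9, R 4.3.3 and limma 3.58.1.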

Additional observations from a re-analysis of the deposited data

How the results depend on the processing

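With a 2-fold threshold 0 of the 7 compared intestinal genes changed with siH19-1 and 0 with siH19-2, and after median centring 0 changed with siH19-2, where AGR2 was at 0.49. In the other alternatives run, 1 changed with each siRNA. Between the siRNAs 0 changed in every alternative. The median over the genes compared ranged from 0.16 to 0.27 with siH19-1 and from 0.09 to 0.24 with siH19-2. None of the 80 differences of single intestinal genes recomputed under alternatives moved by more than the SD between probe sets of 1 gene (0.233 with siH19-1, 0.295 with siH19-2). Many of the 80 could not move, since another signal minimum or the mean over probe sets leaves these differences as deposited. Median centring shifts all genes of an array alike, so only quantile normalization and cyclic loess could move genes separately. Of the 80, 2 lost their sign, both of GATA6 after median centring. Median centring put the median of all compared genes at -0.12 with siH19-1 and -0.17 with siH19-2.

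Of the lists, with a 2-fold threshold 0 genes changed among intestinal transcription factors, brush border genes and crypt stem cell genes, and 1 each in the colon epithelial identity and disulfide isomerase lists. Brush border genes also gave 0 after quantile normalization and cyclic loess, disulfide isomerases 1 after cyclic loess, and crypt stem cell genes 4 after median centring. Median centring lowers the siH19-2 differences of all genes alike. The share of all compared genes that fell after it was not computed, so the count of 4 has no background to be set against. With no signal minimum 1 enterocyte gene changed, CA2 (4.79, 4.54 and 4.10). With a minimum of 7 the siH19-2 median of intestinal transcription factors was -0.31; fewer genes entered. Taking the mean over probe sets left every member's value as it was, since each has 1.

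With limma over the 9630 genes, 0 passed at an adjusted p of 0.05, the lowest being 0.863, and 354 passed at an unadjusted p of 0.05; after quantile normalization 0 and 326 passed. No paired analysis was possible because each condition has 1 array.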
